A study of Mus musculus with 14 samples.

Results

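The 10 genes described here encode transporters of the plasma membrane, most of them carriers of amino acids, and they were taken by symbol from the 41053 gene rows of both count tables. They are the complete SLC43 family (Slc43a1, Slc43a2 and Slc43a3), the heavy chain Slc3a2 with its light chains Slc7a5, Slc7a6 and Slc7a11, and the sodium-coupled carriers Slc1a5, Slc38a1 and Slc38a2. The set was chosen by symbol, on measured values of these same libraries, and which of the comparisons weighed in that choice is not given in the sources used here. All comparisons are therefore counted as used, and the changes, calls and adjusted p-values below describe the genes and are not independent evidence about them. All 10 symbols were found in both tables, and 9 of the 10 passed the filter on low counts in each of the 4 comparisons. The exception was Slc7a11.

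The RNA of B cells from the spleen of C57BL/6 mice was sequenced in 14 libraries, which fall into 4 groups. The group shTet2 held 2 libraries of lymphoma B cells (replicates 1 and 2), whose genotype label is a TET2 knock-down. Its controls were 5 lymphoma libraries labelled TET2 wild type (replicates 1 to 5). The group KO held 4 libraries of germinal center (GC) B cells with a TET2 knock-out (replicates 2 to 5), and the group WT held 3 libraries of wild-type GC B cells (replicates 1, 3 and 4). The labels give no age, no Cre driver, no deleted exon and no origin of the lymphoma, and they do not say that replicates came from separate animals. The adjusted p-values therefore measure the spread between these libraries, which may be technical. TET2 acts on DNA, where it oxidises the methyl group of cytosine, and the study asks which genes change with its loss.

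Amino acids are charged and polar, so a growing B cell takes them up through carriers. SLC43A1 and SLC43A2, also known as LAT3 and LAT4, let leucine and other large neutral amino acids run down their gradient and need no partner protein. SLC43A3 belongs to the same family by sequence but carries purine nucleobases, so it is not an amino acid transporter in the strict sense. SLC7A5, SLC7A6 and SLC7A11 are exchangers that reach the cell surface only when bound to SLC3A2, the heavy chain of CD98. SLC1A5, SLC38A1 and SLC38A2 bring in glutamine and other small neutral amino acids together with sodium.

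Of the 10 genes, 6 had a promoter window (250 bases before to 50 bases after the transcription start) in RefSeq on GRCm38.p6, with 8 windows in all. Windows of Slc43a1 and Slc7a11 are shown, the first because its gene had the largest change among the 10 in GC B cells and the other because it was the one gene that was barely transcribed. Each is written 5′ to 3′ on the gene's own strand, and capitals mark the motifs found. The motifs searched on both strands were CACGTG, the E-box core read by MYC and related factors, and TGATGNAA, the core of the amino acid response element read by ATF4 with its C/EBP partner.
Slc43a1, chr2:84840073-84840372, plus strand: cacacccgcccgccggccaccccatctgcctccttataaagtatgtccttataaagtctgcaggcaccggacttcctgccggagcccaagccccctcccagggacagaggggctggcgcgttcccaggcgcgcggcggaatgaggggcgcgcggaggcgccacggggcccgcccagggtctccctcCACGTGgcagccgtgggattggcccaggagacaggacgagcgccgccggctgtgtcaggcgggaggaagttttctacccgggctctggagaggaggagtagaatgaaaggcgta
Slc7a11, chr3:50443564-50443863, minus strand: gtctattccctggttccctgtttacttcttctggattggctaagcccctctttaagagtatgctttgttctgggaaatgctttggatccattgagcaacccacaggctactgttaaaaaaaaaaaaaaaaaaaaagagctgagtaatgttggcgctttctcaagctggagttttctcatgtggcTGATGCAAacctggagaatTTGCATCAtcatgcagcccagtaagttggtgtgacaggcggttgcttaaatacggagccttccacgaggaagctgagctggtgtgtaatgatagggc
The Slc43a1 window held 26 CpG dinucleotides, the substrate of DNA methylation, and 83.1% of 32851 mouse promoter windows of the same length held fewer. Its single CACGTG began at position -64 relative to the RefSeq start of this window, and 7.15% of all windows held that motif. The Slc43a1 gene as counted here begins before this window, at 84838850. The Slc7a11 window held only 4 CpG dinucleotides, below the median of 7. It carried the ATF4 core at positions -66 and -47, the second of these on the other strand, and 3.97% of all windows held at least 1 such core. The other 6 windows, of Slc43a2, Slc7a6, Slc3a2 and Slc38a2, held between 15 and 42 CpG dinucleotides and neither motif. A match describes these letters only, and no binding or methylation was measured here.

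Total counts were 9386084 to 14741588 in the shTet2 libraries, 6691167 to 18598386 in their controls, 29487244 to 30330950 with the knock-out and 27191862 to 30434184 in wild-type GC B cells. Rows of ribosomal and other structural RNA, a hand-picked list of 10, took 45.0% and 54.0% of the counts in the shTet2 libraries, 57.5% to 80.7% in the controls and 0.370% to 1.32% in GC B cells. Values below are normalised read counts (CPM, each count taken as a share of its library and scaled by TMM factors over all 14 libraries). Tet2 itself lay at 79.4 to 86.0 CPM in shTet2 libraries against 89.0 to 105.4 CPM in controls, and at 7.79 to 9.53 CPM in KO libraries against 7.53 to 8.95 CPM in WT libraries. Neither difference passed the test (log2 fold change -0.21, adjusted p = 0.295, and 0.04, adjusted p = 0.909), and counts over the whole gene do not check a deletion of some exons. Markers of B cells were present in every group. Germinal center markers summed to 2218 to 2544 CPM in KO and 1970 to 2648 CPM in WT libraries. In the lymphoma cells they summed to 691 and 963 CPM with shTet2 and to 244 to 387 CPM in controls. The 8 macrophage markers summed to 42.6 and 155.7 CPM in shTet2 replicates 1 and 2, so that replicate 2 stood apart from the controls at 37.1 to 46.0 CPM. They summed to 11.9 to 15.8 CPM in KO and 27.6 to 38.9 CPM in WT libraries, and in bulk RNA fewer cells of a type and less RNA per cell cannot be told apart.

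**Figure D1:**
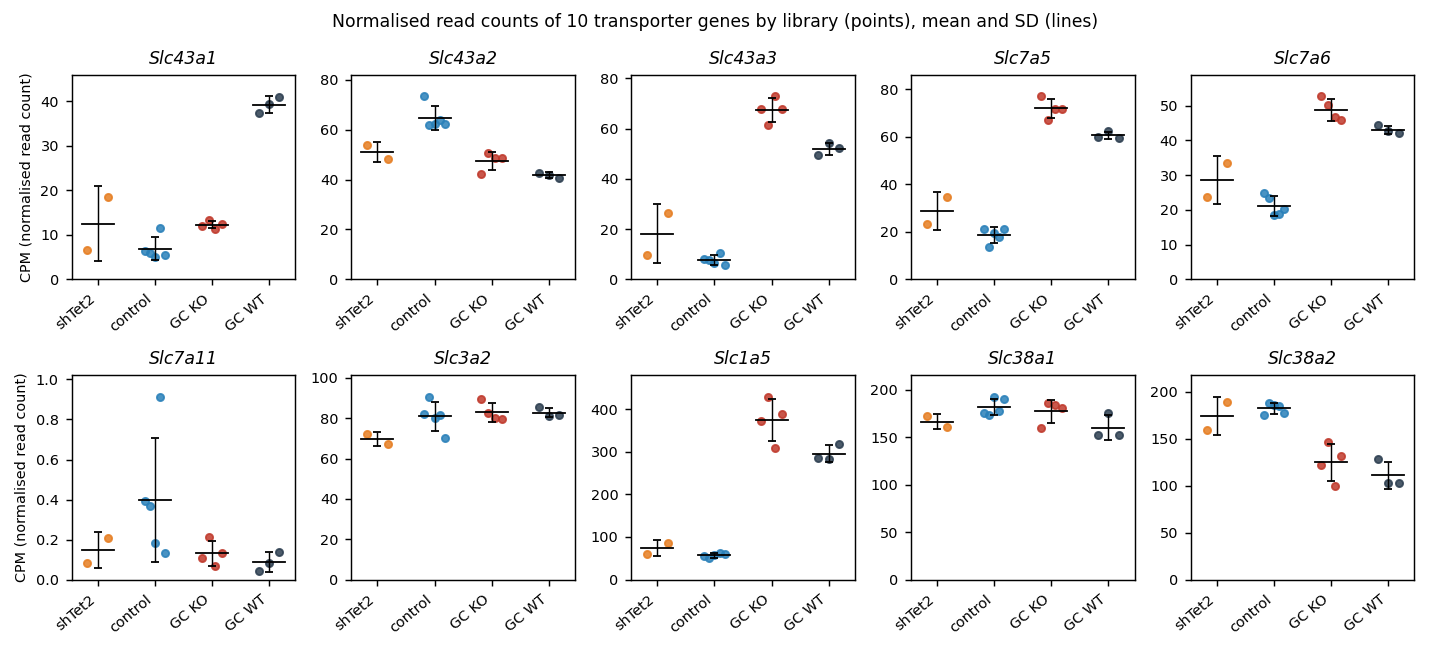
Normalised read count (CPM, vertical axis from 0) of each of the 10 transporter genes in every library, by group (points), with the group mean and SD (lines), for shTet2 and control lymphoma cells and for KO and WT GC B cells. Slc43a1 lies between 11.3 and 13.2 CPM in the KO libraries, below all WT libraries, and the 2 shTet2 points lie far apart for Slc43a1 and Slc43a3.

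KO and WT GC B cells were set side by side to see what loss of TET2 does to these genes in B cells that are not malignant. Slc43a1 fell 3.33-fold in the KO cells, Slc43a3 rose 1.25-fold, and the other 7 tested genes did not pass the threshold of an adjusted p under 0.05. That made 1 higher and 1 lower call among 9 tested, where 6.49% of 13600 genes were called (1.92% higher and 4.57% lower). The median log2 fold change of the 9 was 0.13, against 0.01 over all genes, with 7 of 9 positive. The ranges of the groups did not overlap for Slc43a3, Slc7a5 and Slc7a6, all higher in KO, and for Slc43a1, lower in KO. Over all genes 20.2% had groups that did not overlap (11.9% higher and 8.30% lower in KO).

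Slc43a1 (GRCm38 chromosome 2, 84838850 to 84863594) encodes the facilitative carrier LAT3 and gave the clearest difference. It stood at 11.9, 13.2, 11.3 and 12.3 CPM in KO replicates 2 to 5, against 37.3, 39.2 and 41.0 CPM in WT replicates 1, 3 and 4. All 4 KO libraries lay close together and far below all 3 WT libraries. The means were 12.2 ± 0.789 CPM (SD, n = 4) in KO and 39.2 ± 1.87 CPM (SD, n = 3) in WT. The log2 fold change was -1.74 (SE 0.09, 95% interval -1.93 to -1.54), and edgeR's quasi-likelihood test gave an adjusted p of 3.46e-08, the third smallest p of 13600 genes. Leaving out each library in turn kept it between -1.78 and -1.70. The call was lost when the level of Y-linked transcripts entered the model, where the change was -1.80 with an adjusted p of 0.225. The other 9 alternatives kept it, and adjusted p ranged from 8.38e-61 to 0.225 over all 10. Y-linked transcripts summed to 113.6 to 125.2 CPM in KO and 61.2 to 74.8 CPM in WT libraries, so that level and the genotype cannot be told apart in these 7 libraries. Macrophage markers were also lower in KO, 7 of 7 tested, and their part in the fall of Slc43a1 was not tested.

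Slc43a2 (chromosome 11, 75531694 to 75577575), the second leucine carrier of the family, did not follow it. It stood at 42.4, 50.5, 48.6 and 48.6 CPM in KO replicates 2 to 5, against 42.8, 41.8 and 40.4 CPM in WT replicates 1, 3 and 4. KO replicate 2 lay within the WT range and the other 3 lay above it. The log2 fold change was 0.14 (SE 0.09, 95% interval -0.04 to 0.32, adjusted p = 0.410). In every KO library, as in all 7 lymphoma libraries, Slc43a2 exceeded Slc43a1 per kb of exon, and in every WT library Slc43a1 exceeded Slc43a2.

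Slc43a3 (chromosome 2, 84936579 to 84958509), the purine nucleobase carrier, lies on the same strand of the same chromosome as Slc43a1, 73.0 kb beyond its end. It stood at 67.7, 61.5, 72.8 and 68.0 CPM in KO replicates 2 to 5, against 49.6, 54.2 and 52.1 CPM in WT replicates 1, 3 and 4. All KO libraries lay above all WT libraries. The log2 fold change was 0.33 (SE 0.08, 95% interval 0.15 to 0.50, adjusted p = 0.0300). That call was fragile. It was lost when KO replicate 4 or 5 or any of the 3 WT libraries was left out, with changes of 0.28 to 0.36 and adjusted p of 0.0227 to 0.116 over the 7 fits. In the same libraries the ratio of Slc43a1 to Slc43a3 per kb was 0.142 ± 0.0192 in KO (SD, n = 4) and 0.588 ± 0.0247 in WT (SD, n = 3), without overlap, a ratio that needs no scaling between libraries.

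Slc3a2 (chromosome 19, 8706882 to 8723369), the heavy chain that the exchangers share, was level between the groups. It stood at 89.6, 82.5, 79.9 and 79.8 CPM in KO replicates 2 to 5, against 85.4, 81.1 and 81.7 CPM in WT replicates 1, 3 and 4. The WT values fell inside the KO range, and the 95% interval of the log2 fold change ran from -0.22 to 0.12 (estimate -0.05, adjusted p = 0.802).

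Slc7a5 (chromosome 8, 121881150 to 121907694), the leucine exchanger LAT1, stood at 76.9, 67.2, 71.7 and 71.5 CPM in KO replicates 2 to 5, against 59.7, 62.3 and 59.6 CPM in WT replicates 1, 3 and 4. The groups did not overlap, but the change of 0.19 did not pass the threshold (SE 0.08, adjusted p = 0.177). Slc7a6 (chromosome 8, 106168875 to 106198704), which exchanges cationic for neutral amino acids, stood at 52.7, 50.1, 46.8 and 45.8 CPM in KO replicates 2 to 5, against 44.4, 42.7 and 42.3 CPM in WT replicates 1, 3 and 4. Its groups were also apart by a small margin, with a change of 0.13 (SE 0.08, adjusted p = 0.431).

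Slc7a11 (chromosome 3, 50364936 to 50443613), the cystine and glutamate exchanger xCT, had 5, 10, 3 and 6 counts in KO replicates 2 to 5, against 2, 4 and 6 counts in WT replicates 1, 3 and 4. The highest of these was 0.215 CPM. It was too low to be tested, and of the 3 light chain RNAs described here nearly all was Slc7a5 and Slc7a6.

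Slc1a5 (chromosome 7, 16781346 to 16798274), the glutamine exchanger ASCT2, had the highest level of the 10 in GC B cells per kb of exon. It stood at 373.0, 428.9, 309.6 and 388.9 CPM in KO replicates 2 to 5, against 285.6, 282.5 and 318.2 CPM in WT replicates 1, 3 and 4. KO replicate 4 lay inside the WT range while the other 3 lay above it. The change of 0.29 missed the threshold (SE 0.10, 95% interval 0.07 to 0.52, adjusted p = 0.114). It passed without KO replicate 4 (0.37, adjusted p = 0.0332) and with no filter on low counts (0.30, adjusted p = 0.0366), in a range of adjusted p from 0.0332 to 0.325 over the 7 fits that left out 1 library and from 0.0366 to 0.999 over the other alternatives.

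Slc38a1 (chromosome 15, 96571418 to 96642913) stood at 159.6, 185.7, 183.3 and 180.1 CPM in KO replicates 2 to 5, against 152.5, 174.8 and 151.7 CPM in WT replicates 1, 3 and 4. Slc38a2 (chromosome 15, 96687394 to 96699698) stood at 121.8, 146.1, 99.6 and 131.3 CPM in KO replicates 2 to 5, against 127.8, 102.6 and 102.5 CPM in WT replicates 1, 3 and 4. The groups overlapped for both of these sodium-coupled carriers. Their log2 fold changes were 0.10 (SE 0.09, adjusted p = 0.584) and 0.12 (SE 0.12, adjusted p = 0.670).

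**Figure D2:**
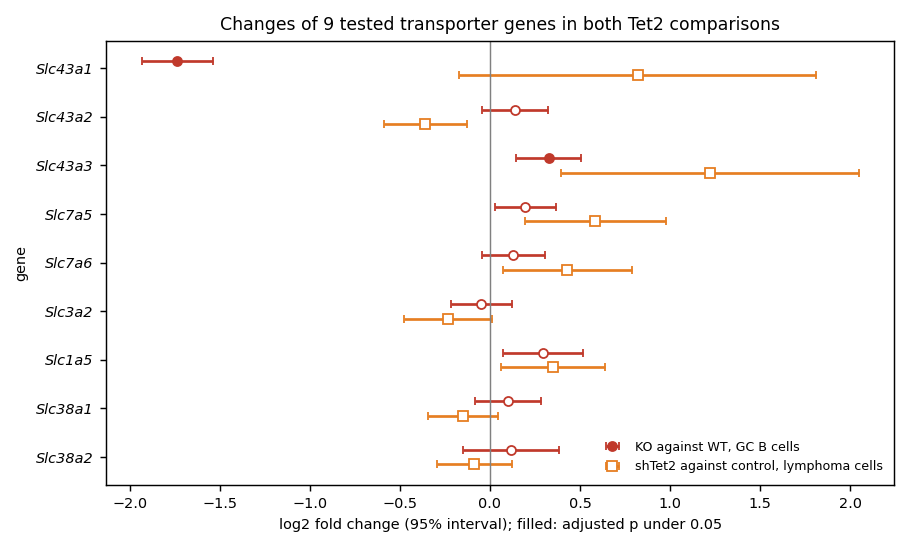
Log2 fold change (horizontal axis) with its unadjusted 95% interval for the 9 tested genes, in KO against WT GC B cells (circles) and in shTet2 against control lymphoma cells (squares). Filled symbols mark an adjusted p under 0.05, which only Slc43a1 (-1.74) and Slc43a3 (0.33) reached, both in GC B cells.

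The comparison of shTet2 with control lymphoma cells asks the same of malignant B cells. None of the 9 tested genes passed the threshold with edgeR, where 2.58% of 12797 genes were called (1.84% higher and 0.742% lower). At an unadjusted p under 0.05 there were 4 higher (Slc43a3, Slc7a5, Slc7a6 and Slc1a5) and 1 lower (Slc43a2), DESeq2 called 1 gene (Slc43a3) and limma-voom called 0. The median log2 fold change of the 9 was 0.35, against -0.00 over all genes. The groups did not overlap for Slc7a5, higher with shTet2, nor for Slc43a2 and Slc38a1, lower with shTet2, where 21.0% of all genes had groups apart (12.5% higher and 8.52% lower).

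Slc43a1 stood at 6.54 and 18.4 CPM in shTet2 replicates 1 and 2, against 6.44, 5.85, 5.004, 11.5 and 5.47 CPM in control replicates 1 to 5. Only shTet2 replicate 2 lay above the controls. These values rested on 80 and 175 counts in the shTet2 libraries and on 16 to 88 counts in the controls, where GC B-cell libraries had 497 or more. The log2 fold change was 0.82 (SE 0.43, 95% interval -0.17 to 1.81, adjusted p = 0.349). It was 1.38 (adjusted p = 0.0172) without shTet2 replicate 1 and -0.10 (adjusted p = 0.970) without shTet2 replicate 2. A lone shTet2 library is assumed in those fits to vary like the controls.

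Slc43a3 showed the same split between the shTet2 libraries. It stood at 9.80 and 26.6 CPM in shTet2 replicates 1 and 2, against 8.20, 7.67, 6.37, 10.6 and 5.61 CPM in control replicates 1 to 5. Again replicate 2 was far above the controls while replicate 1 lay among them. The change was 1.22 (SE 0.36, adjusted p = 0.119), 1.77 (adjusted p = 0.000169) without shTet2 replicate 1 and 0.34 (adjusted p = 0.782) without shTet2 replicate 2. The ratio of Slc43a1 to Slc43a3 per kb was 0.521 and 0.540 in the shTet2 libraries, against 0.595 to 0.848 in the controls. Both shTet2 libraries lay slightly below the controls, which rested on only 16 to 88 counts of Slc43a1 and 21 to 81 of Slc43a3. The gap was not tested against counting noise. Across the 7 lymphoma libraries the log2 levels of the 2 genes had a Pearson r of 0.94, and across the 7 GC B-cell libraries -0.94, values that carry the group differences and the shared libraries with them.

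Slc43a2 lay lower with shTet2. It stood at 54.0 and 48.4 CPM in shTet2 replicates 1 and 2, against 73.4, 62.1, 62.5, 63.8 and 62.2 CPM in control replicates 1 to 5. Both shTet2 libraries lay below all controls, and control replicate 1 was the highest. The change of -0.36 missed the threshold (SE 0.11, 95% interval -0.59 to -0.13, adjusted p = 0.0953). Its sign held in each fit that left out 1 library, from -0.45 to -0.28.

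The heavy chain Slc3a2 stood at 72.0 and 67.1 CPM in shTet2 replicates 1 and 2, against 82.2, 90.6, 79.9, 81.7 and 70.1 CPM in control replicates 1 to 5. The shTet2 libraries were at the low end, overlapping control replicate 5, with a change of -0.23 (SE 0.11, adjusted p = 0.276). Its light chain Slc7a5 stood at 23.0 and 34.4 CPM in shTet2 replicates 1 and 2, against 21.3, 13.5, 19.4, 17.8 and 21.1 CPM in control replicates 1 to 5. Both shTet2 libraries lay above all controls, replicate 1 narrowly. The change was 0.59 (SE 0.18, adjusted p = 0.107), between 0.27 without shTet2 replicate 2 (adjusted p = 0.715) and 0.84 without shTet2 replicate 1 (adjusted p = 0.00375). Slc7a6 stood at 23.7 and 33.6 CPM in shTet2 replicates 1 and 2, against 24.8, 23.4, 18.7, 18.7 and 20.3 CPM in control replicates 1 to 5. Replicate 1 lay inside the control range and replicate 2 above it (0.43, SE 0.17, adjusted p = 0.182). Slc7a11 had 1 and 2 counts with shTet2 and 1 to 7 counts in controls and was not tested.

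**Figure D3:**
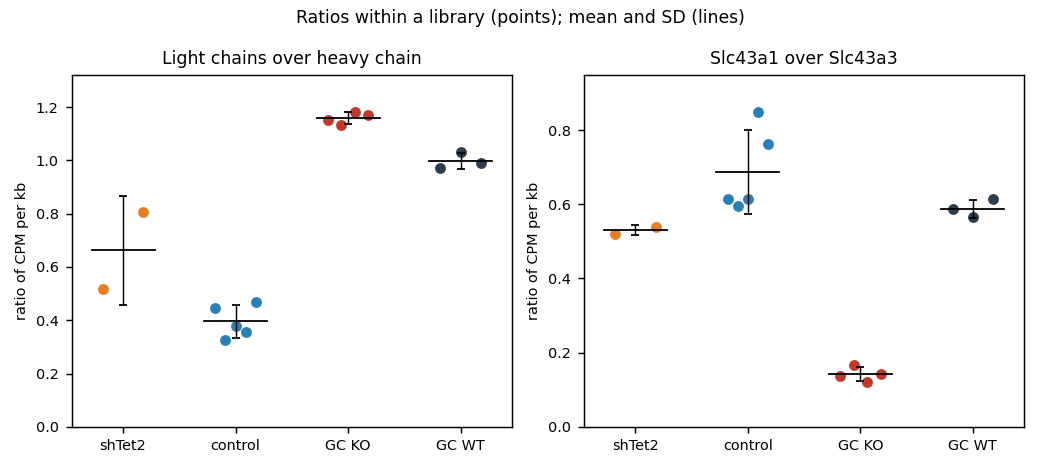
Ratios of normalised read count per kb of exon within each library (points), with the group mean and SD (lines), for shTet2 and control lymphoma cells and KO and WT GC B cells. Left, the sum of the light chains Slc7a5, Slc7a6 and Slc7a11 over the heavy chain Slc3a2; right, Slc43a1 over Slc43a3, which is lowest in the KO libraries at 0.122 to 0.168.

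Summed, the light chains Slc7a5, Slc7a6 and Slc7a11 stood higher against the heavy chain in KO and in shTet2 libraries, a description with no test. The light chain Slc7a7, which is not among the genes chosen, was left out of this sum. It was called lower in KO (log2 fold change -1.11, SE 0.16), and was higher but not called with shTet2 (1.02, SE 0.43). The summed level per kb of Slc7a5, Slc7a6 and Slc7a11 over that of Slc3a2 was 1.16 ± 0.0220 in KO libraries (SD, n = 4) and 0.998 ± 0.0301 in WT libraries (SD, n = 3). All KO ratios, 1.13 to 1.18, lay above all WT ratios, 0.971 to 1.03. With shTet2 the ratio was 0.517 and 0.807 in replicates 1 and 2, against 0.325 to 0.470 in controls. Both shTet2 libraries lay above all controls here too, and replicate 2 again stood further away. Slc7a5 made the larger part of this sum in GC B cells, at 1.48 ± 0.0997 times Slc7a6 per kb in KO and 1.41 ± 0.0585 times in WT. In lymphoma cells Slc7a5 and Slc7a6 were about equal, at 0.978 and 1.03 with shTet2 and 0.898 ± 0.193 (SD, n = 5) in controls.

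Among the sodium-coupled carriers, Slc1a5 stood at 60.5 and 86.3 CPM in shTet2 replicates 1 and 2, against 54.1, 49.7, 56.5, 61.9 and 60.2 CPM in control replicates 1 to 5. Replicate 1 lay inside the control range and replicate 2 above it, with a change of 0.35 (SE 0.13, adjusted p = 0.176). Slc38a1 stood at 171.7 and 160.6 CPM in shTet2 replicates 1 and 2, against 174.9, 173.6, 192.4, 177.4 and 189.7 CPM in control replicates 1 to 5. Both shTet2 libraries lay just below all controls (-0.15, SE 0.09, adjusted p = 0.395). Slc38a2 stood at 159.3 and 188.5 CPM in shTet2 replicates 1 and 2, against 175.0, 188.2, 186.0, 184.8 and 176.9 CPM in control replicates 1 to 5. The shTet2 libraries fell on either side of the controls (-0.09, SE 0.10, adjusted p = 0.654). Without shTet2 replicate 1, 6 of the 9 genes were called (5 higher and Slc43a2 lower), and 2481 of all genes. Without shTet2 replicate 2, none of the 9 and 130 of all genes were called. The macrophage markers and the lower share of ribosomal RNA rows moved with replicate 2 as well. Germinal center markers were above the controls in both shTet2 libraries and highest in replicate 2 (691 and 963 CPM, against 244 to 387 CPM). The part of all these in the values was not tested.

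The effect of shTet2 in lymphoma cells was set against that of the knock-out in GC B cells as the difference between the effects. All 4 groups were in a single model that uses the same libraries. Cell type, experiment, knock-down or knock-out, Y-linked level and share of ribosomal RNA rows cannot be told apart in this contrast. Slc43a1 differed by 2.51 on the log2 scale (SE 0.43, 95% interval 1.59 to 3.43, adjusted p = 0.00426), with its lower value in KO and its higher mean with shTet2. Slc43a2 differed by -0.53 (SE 0.13, 95% interval -0.81 to -0.25, adjusted p = 0.0264). The other 7 tested genes did not pass, and 4.99% of 15441 genes did (3.39% higher and 1.61% lower). For Slc43a1 the difference ranged from 1.57 without shTet2 replicate 2 to 3.09 without shTet2 replicate 1 and kept its call in all 14 fits that left out 1 library. For Slc43a2 the call was lost without KO replicate 5, WT replicate 3, WT replicate 4 or shTet2 replicate 2, with adjusted p from 0.0120 to 0.138 over those 14 fits.

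**Figure D4:**
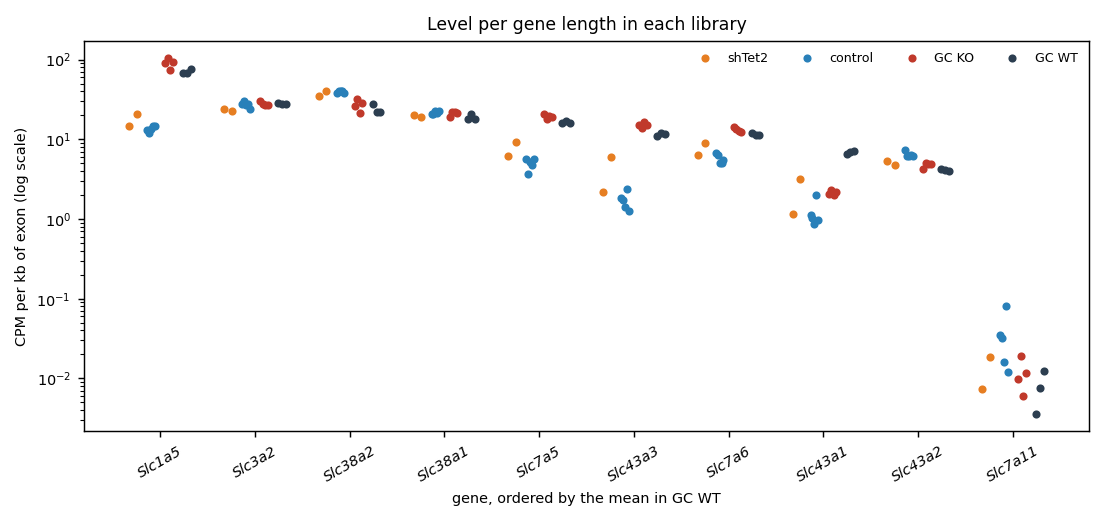
Normalised read count per kb of exon (log scale) of the 10 genes in every library, ordered by the mean in WT GC B cells, with colours for shTet2, control, KO and WT libraries. Slc1a5 leads in GC B cells at 71.1 CPM per kb in WT, and Slc7a11 lies below all other genes in every library.

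Levels of different genes were compared per kb of exon. In KO GC B cells the order was Slc1a5 at 90.3 ± 11.9, Slc3a2 at 28.04 ± 1.56, Slc38a2 at 27.0 ± 4.21, Slc38a1 at 21.1 ± 1.43, Slc7a5 at 19.4 ± 1.07, Slc43a3 at 15.1 ± 1.05, Slc7a6 at 13.1 ± 0.847, Slc43a2 at 4.73 ± 0.350, Slc43a1 at 2.13 ± 0.138 and Slc7a11 at 0.0116 ± 0.00548 CPM per kb (SD, n = 4). In WT GC B cells Slc1a5 stood at 71.1 ± 4.76 and Slc3a2 at 27.97 ± 0.773 CPM per kb, and the next genes kept the KO order down to the SLC43 pair, where Slc43a1 at 6.85 ± 0.327 stood above Slc43a2 at 4.15 ± 0.118 (SD, n = 3). Some neighbours changed places between single libraries, namely Slc3a2 with Slc38a2, Slc38a2 with Slc38a1 and Slc38a1 with Slc7a5 in KO, and Slc43a3 with Slc7a6 in WT. These pairs did not differ beyond their spread in those groups. Slc7a5 stood above Slc43a3 in all 7 GC B-cell libraries. Slc1a5 alone made 37.3% to 43.5% of the summed level per kb of the 10 genes in KO libraries and 35.5% to 39.3% in WT libraries.

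Lymphoma cells had another order, led by Slc38a2 at 37.6 ± 4.45 CPM per kb with shTet2 (SD, n = 2) and 39.4 ± 1.26 in controls (SD, n = 5). Slc1a5 stood at 17.7 ± 4.40 with shTet2 and 13.6 ± 1.17 CPM per kb in controls, behind Slc38a2, Slc3a2 and Slc38a1 by its mean. Set against WT GC B cells, the control lymphoma cells had lower Slc43a3 (log2 difference -2.77, SE 0.25), Slc43a1 (-2.50, SE 0.28), Slc1a5 (-2.38, SE 0.12), Slc7a5 (-1.67, SE 0.12) and Slc7a6 (-1.05, SE 0.11). They had higher Slc38a2 (0.71, SE 0.11), Slc43a2 (0.64, SE 0.09) and, with overlapping ranges, Slc38a1 (0.19, SE 0.08). All 8 passed in edgeR, in a fit where 80.7% of 15441 genes passed (40.2% higher and 40.4% lower). The groups did not overlap for 2 genes higher and 5 lower in the lymphoma cells, where 74.5% of all genes had groups apart (36.0% higher and 38.5% lower). The weakest call was that of Slc38a1, with an adjusted p of 0.0471. It was lost with no filter (0.07, adjusted p = 0.543) and without ribosomal RNA rows (0.13, adjusted p = 0.166). It was also lost without WT replicate 1 or 4, without shTet2 replicate 1 and without any 1 of the 5 controls, with adjusted p of 0.0711 to 0.148 in those 8 fits. Over the 7 other alternatives its adjusted p ranged from 2.29e-06 to 0.543. Slc3a2 differed by -0.04 (95% interval -0.22 to 0.14, adjusted p = 0.672), and its sign and its call depended on the scaling. It was 0.10 with median-of-ratios scaling and 0.37, called higher with an adjusted p of 0.000736, with upper-quartile scaling. Slc7a11 passed the filter in only 4 of the alternative fits of this contrast, and was called higher in control lymphoma cells in each (2.002 to 2.12, adjusted p of 0.0128 to 0.0230), on sums of 13 counts in the controls and 12 in WT. Markers of other cell types also differed here, with 4 of 4 tested neutrophil markers called higher in control lymphoma cells (median 6.69). Of 6 T-cell markers 5 were called higher (median 2.83). The other, Lck, was called lower (-2.55, SE 0.16), at 20.8 ± 2.90 CPM in controls against 122.1 ± 15.7 CPM in WT. The T-cell markers together had a median sum of 31.2 CPM in controls and 130.6 CPM in WT. The part of these cell types was not tested. Y-linked transcripts summed to 0 CPM in every control lymphoma library and to 61.2 to 74.8 CPM in WT libraries. Cell state, experiment, Y-linked level and share of ribosomal RNA rows cannot be told apart in this contrast.

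**Figure D5:**
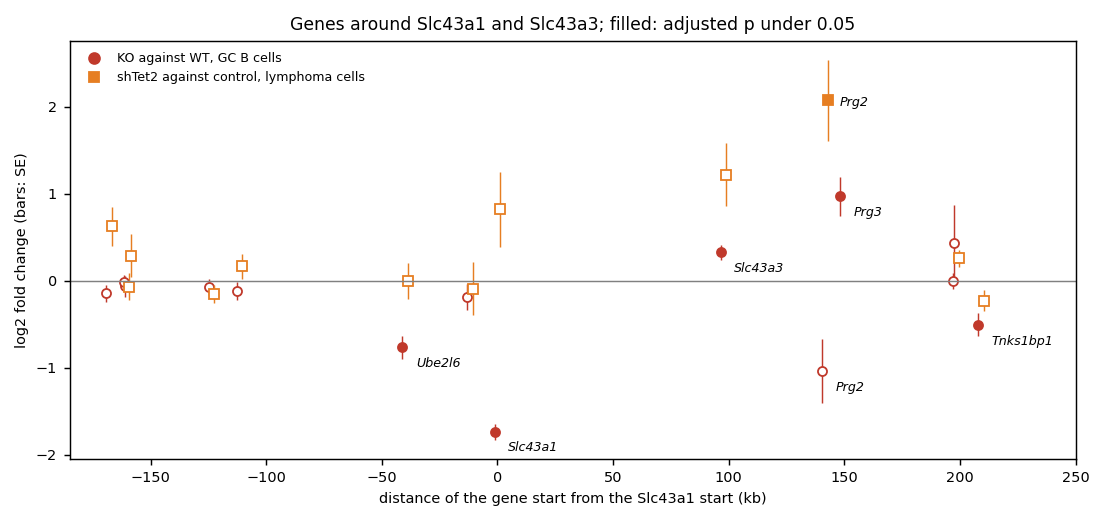
Log2 fold change (vertical axis, bars are the SE) of tested genes around Slc43a1 and Slc43a3, for KO against WT GC B cells (circles) and shTet2 against control lymphoma cells (squares). The horizontal axis gives the distance in kb of each gene's start, as annotated for counting, from that of Slc43a1 at 84838850. The symbols of a gene are shifted slightly sideways to keep them apart. Filled symbols mark an adjusted p under 0.05, and the 2 nearest tested genes before Slc43a1 are Timm10 (-0.18 in GC B cells, not called) and Ube2l6 (-0.77, called).

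Around the SLC43 pair on chromosome 2, within 200 kb and chosen after its values were seen, 12 genes besides Slc43a1 and Slc43a3 were tested in GC B cells and 3 were called, where 6.49% of all genes were. These were Ube2l6, a conjugating enzyme for the ubiquitin-like protein ISG15 (-0.77, SE 0.13), Prg3, an eosinophil granule protein gene (0.97, SE 0.22), and Tnks1bp1, which encodes a tankyrase-binding protein (-0.51, SE 0.13). Timm10, a mitochondrial import chaperone gene between Ube2l6 and Slc43a1, changed by -0.18 (SE 0.15, adjusted p = 0.555). In lymphoma cells 10 of these neighbours were tested, where 2.58% of all genes were called, and Prg2, which encodes eosinophil major basic protein, was the one called (2.07, SE 0.47, adjusted p = 0.0366), at 2.18 CPM with shTet2 and 0.458 CPM in controls. The calls in GC B cells stood in both directions. None of the 10 transporter genes shared exon bases with another gene.

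The genes whose log2 level followed each of 4 members most closely over the 14 libraries, after the mean of each table was taken out, were ranked among 9809 genes. Slc43a1 was most like Cd72, an inhibitory co-receptor of B cells (Pearson r = 0.967), Fcrl5, an Fc receptor-like gene (0.957), and Litaf (0.946). Among the genes most like Slc43a2 were Arhgap35 (0.924) and Srrm1 (0.913). Slc43a3 was most like Ercc6l2 (0.967), Eif3l, a translation initiation factor subunit gene (0.953), and Nudcd2 (0.948). Within the 7 lymphoma libraries, where shTet2 replicate 2 stood apart, these values were 0.973 to 0.987, and within the 7 GC B-cell libraries 0.749 to 0.788. Slc7a5 was most like Ctps, which makes CTP with glutamine as nitrogen donor (0.960), Trip13 (0.952) and Dera (0.950), with 0.972 to 0.982 in lymphoma and 0.7104 to 0.844 in GC B-cell libraries. Libraries of a group share their condition and, in the lymphoma table, their depth and ribosomal RNA share, so these values describe likeness only.

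Further genes of the same pathways were taken from 6 lists with 162 genes. Over all genes 6.49% were called in GC B cells (1.92% higher and 4.57% lower) and 2.58% in lymphoma cells. Of 45 other amino acid transporters 21 were tested in GC B cells, with 2 called higher and 2 lower and a median log2 fold change of 0.02. Slc7a7, the light chain that exports cationic amino acids, fell to 7.77 ± 1.73 CPM in KO, against 16.2 ± 2.75 CPM in WT (-1.11, SE 0.16). Slc1a3, a glutamate transporter gene, fell to 0.879 ± 0.320 CPM in KO, against 2.60 ± 1.03 CPM in WT (-1.61, SE 0.31). Slc1a4, the neutral amino acid exchanger next of kin to Slc1a5, rose to 4.43 ± 0.520 CPM in KO, against 2.49 ± 0.193 CPM in WT (0.78, SE 0.17). The call of Slc1a4 was lost without WT replicate 3 (adjusted p = 0.0520) and with the replicate block (adjusted p = 0.0894). With all 4 groups in one model the calls of Slc7a7, Slc1a3 and Slc1a4 were lost (adjusted p of 0.0797, 0.144 and 0.0937). In lymphoma cells 0 of 18 were called with edgeR, DESeq2 or limma-voom (2 at an unadjusted p under 0.05). Slc7a7 and Slc1a3 stood there at 18.04 ± 13.4 and 5.54 ± 5.98 CPM with shTet2 (SD, n = 2), against 8.52 ± 2.41 and 1.11 ± 0.792 CPM in controls (SD, n = 5). Both are also expressed by macrophages, whose markers were lower in KO libraries and highest in shTet2 replicate 2, and the part of these cells was not tested.

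Genes by which mTORC1 senses amino acids, the step that leucine and glutamine feed, gave 0 calls with edgeR among 31 tested in GC B cells (median 0.01, 6 at an unadjusted p under 0.05, 2 called by DESeq2 and 0 by limma-voom). In lymphoma cells the count was 0 among 30 (median -0.02, 4 at an unadjusted p under 0.05, 0 by the other tools). The nearest to the threshold were Fnip2 in GC B cells (1.53, SE 0.44, adjusted p just above 0.05) and Rraga, a Rag GTPase gene, in lymphoma cells (-0.48, SE 0.13, adjusted p = 0.0746).

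The ATF4 response, by which cells short of amino acids raise transporters and synthesis enzymes, had 1 of 34 genes called in GC B cells. This was Ppp1r15a, the phosphatase subunit that ends the stress response, at 147.8 ± 29.2 CPM in KO against 73.0 ± 14.7 CPM in WT (0.97, SE 0.20, adjusted p = 0.0251). Its call was lost without KO replicate 2, 3 or 5 or WT replicate 1 (adjusted p of 0.0625 to 0.0942). It was also lost with the replicate block (adjusted p = 0.743). Over all genes 6.49% were called in GC B cells. In lymphoma cells 5 were called higher and 1 lower of 32, where 2.58% of all genes were called, with a median of 0.34, against -0.00 over all genes. DESeq2 called 7 of the 32 and limma-voom 1. These calls depended on single libraries. They fell to 1 higher and 1 lower without control replicate 1, 2 or 3, and to 2 higher and 1 lower without control replicate 4 or 5. Without shTet2 replicate 2 a lone shTet2 library remained, and the changes of 3 genes in that fit are given below. None of the list was called with the replicate block or with ribosomal RNA share as covariate. Over all genes 4 and 0 were called there in edgeR (1223 and 495 at an unadjusted p under 0.05). Macrophage markers were highest in the same shTet2 replicate 2, at 155.7 CPM, and their part was not tested. Psat1, of serine synthesis, stood at 26.5 and 39.9 CPM in shTet2 replicates 1 and 2, against 12.4 to 17.8 CPM in controls (1.05, SE 0.18, and 0.73 without shTet2 replicate 2). Asns, asparagine synthetase, stood at 3.92 and 11.97 CPM in shTet2 replicates 1 and 2, against 1.18 to 2.67 CPM in controls (2.08, SE 0.41, and 1.08 without shTet2 replicate 2). Atf3, a stress-induced repressor gene, fell to 1.23 ± 0.108 CPM with shTet2, against 8.17 ± 3.30 CPM in controls (-2.69, SE 0.44, and -2.60 without shTet2 replicate 2). For all 3 genes both shTet2 libraries lay outside the control range, where 21.0% of all genes had groups apart. The 3 were picked as the called genes of smallest p, so this adds no further evidence.

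Of the genes that use cystine to make glutathione, 17 were tested in GC B cells, with 1 higher and 3 lower. Over all genes 6.49% were called there (1.92% higher and 4.57% lower). Gclc, the rate-limiting enzyme subunit, rose to 49.5 ± 1.74 CPM in KO, against 34.5 ± 4.52 CPM in WT (0.47, SE 0.09). Hmox1, heme oxygenase, fell by 0.71 (SE 0.15) and Ggct fell by 0.42 (SE 0.11) on the log2 scale. The call of Ggct was lost without KO replicate 3 or 5 or any WT library (adjusted p of 0.0703 to 0.0916). It was also lost with the replicate block (adjusted p = 0.154). With all 4 groups in one model the calls of Ggct and Hmox1 were lost (adjusted p of 0.0906 and 0.139). Hmox1 is abundant in spleen macrophages, whose markers were lower in KO as well (7 of 7 tested, median -1.30), and their part was not tested. In lymphoma cells edgeR called 0 of 16 (2 at an unadjusted p under 0.05), DESeq2 2 and limma-voom 0. Of 18 genes that use leucine or glutamine, Bcat1, which removes the amino group of leucine, was called higher in both comparisons. It stood at 30.2 ± 2.66 CPM in KO against 19.7 ± 0.963 CPM in WT (0.57, SE 0.10), and at 5.72 and 16.4 CPM in shTet2 replicates 1 and 2 against 1.10 to 3.92 CPM in controls (1.97, SE 0.43, adjusted p = 0.0462, not called by limma-voom). The call of Bcat1 in lymphoma cells was lost when any of the 5 controls was left out. It was also lost with the replicate block and with ribosomal RNA share as covariate, where 4 and 0 of all genes were called. Without shTet2 replicate 2 the change of Bcat1 in lymphoma cells was 1.03 and without replicate 1 it was 2.54, each with a lone shTet2 library. In GC B cells its call was lost with the replicate block (0.42, adjusted p = 0.104) and with all 4 groups in one model (0.62, adjusted p = 0.183). Glul, glutamine synthetase, fell to 68.2 ± 3.71 CPM in KO, against 88.1 ± 3.25 CPM in WT (-0.42, SE 0.08). For purine bases and nucleosides, the substrates next to SLC43A3, 11 genes were tested in GC B cells. Adk, adenosine kinase, rose to 45.8 ± 6.57 CPM in KO, against 30.4 ± 3.23 CPM in WT (0.54, SE 0.11), and the lysosomal nucleoside carrier Slc29a3 fell by 0.46 (SE 0.10). The call of Slc29a3 was lost without WT replicate 3 (adjusted p = 0.0623) and with the replicate block (adjusted p = 0.189). In lymphoma cells 1 of 12 was called, where 2.58% of all genes were. This was Dck, deoxycytidine kinase, at 49.0 ± 1.23 CPM with shTet2 against 30.9 ± 3.26 CPM in controls (0.64, SE 0.11). It kept its call without shTet2 replicate 2 (0.61, adjusted p = 0.0463) and without replicate 1 (0.66, adjusted p = 0.00414), and lost it with the replicate block (adjusted p = 0.313) and with ribosomal RNA share as covariate (adjusted p = 0.9998). With the Y-linked level in the model, no gene of the 6 lists was called in KO against WT, where 12 of all genes were (724 at an unadjusted p under 0.05).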

How the data were processed

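Messenger RNA of spleen B cells had been extracted with Trizol and RNeasy and made into TruSeq stranded libraries, per the labels' protocols. Per the submitters' processing notes, the aligner was STAR 2.3.0e and the genome GRCm38.p3. What the authors deposited were 2 tables of raw counts and gene lengths, made with featureCounts 1.5.1 over GENCODE vM3 exons summed by gene name, with no strand or paired-end option, per the file headers. No values were normalised before deposit. The numbers 2 to 5 and 1, 3 and 4 are the titles' own replicate numbers.

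Libraries were scaled by TMM over all 14 for the CPM values and within each comparison for the tests. edgeR 4.0.16 (filterByExpr, robust quasi-likelihood test; limma 3.58.1, R 4.3.3) was run on all genes that passed the filter, with Benjamini-Hochberg adjustment and a threshold of 0.05. Fits used only the groups compared, and all 4 groups for the difference between effects and for control lymphoma against WT. CPM per kb used the deposited exon length. DESeq2 1.42.0, limma-voom, other scalings, filters and covariates, a replicate block, and leaving out each library were alternatives.

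The members and all lists (6 pathway lists, 9 marker lists) were chosen with earlier results of these data known. All members are named, with up to 3 called genes of smallest p per list, up to 2 where none was called, and the 3 most alike genes by Pearson r of log2(CPM + 1) among genes with a mean of at least 2 CPM, without predicted, receptor segment and Y-linked genes. Some genes that these rules name are not reported here. Replicates differed by at least 13.3 times the counting noise (chi-square over its degrees of freedom), so none was a copy. Replicate numbers shared between groups gave 2 pairs per comparison, with correlations of -0.09 to 0.05, and were not treated as pairs. The test was tried on simulated counts with a common mean per gene over all libraries of a fit, into which changes were planted. Real differences between groups, such as that between lymphoma and GC B cells, were not simulated, so the rates may not hold for these data. For KO against WT it recovered 76.5% of 98 changes of 2-fold and 95.8% of 95 of 4-fold, among 13378 genes. For the lymphoma comparison it recovered 60.2% and 89.8% of 98 each, among 12466 genes. Of the calls, 9.29% and 9.26% were false, above the nominal 5%. For the difference between effects it recovered 38.9% and 75.8% of 95 each, among 14543 genes, with 6.03% of calls false.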

Additional observations from a re-analysis of the deposited data

Results flagged for a closer look

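Control lymphoma replicate 4 had the highest Slc43a1 level of its group at 11.5 CPM and stood apart from the other 4 controls by Dixon's criterion. Control lymphoma replicate 1 stood apart in the same way for Slc43a2, at 73.4 CPM. Chance alone marks about 1 in 20 groups, and 22 were examined.

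The effect of shTet2 in lymphoma cells minus that of the knock-out in GC B cells passed the test for Slc43a1, at 2.51 on the log2 scale, and for Slc43a2, at -0.53. The Slc43a1 difference was 1.57 without shTet2 replicate 2 and 3.09 without shTet2 replicate 1.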

How the results depend on the processing

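For KO against WT, 2 transporter genes were called, against 1 with the replicate block, 1 with all 4 groups in one model and 0 with the Y-linked level as covariate, 3 with no filter, and 1 to 2 when a library was left out. The call of Slc43a3 was lost in those 3 settings. The replicate block gave Slc43a1 -1.76 and kept its call. Slc3a2 changed sign with all 4 groups (0.0036), and Slc43a2 (-0.024) and Slc38a2 (-0.30) did so with the Y-linked covariate. For shTet2 against control, 0 became 1 with DESeq2, 1 with no filter, 2 with all 4 groups, and 0 to 6 when a library was left out. Slc43a1 there was -0.0099 with ribosomal RNA share as covariate, and ranged from -0.10 to 1.38 over left-out libraries, Slc38a2 from -0.21 to 0.021. For the difference between effects the count was 1 to 4 when a library was left out. Slc1a5 was -0.013 with limma-voom, and the ranges were -0.29 to 0.25 for Slc1a5, -0.044 to 1.42 for Slc43a3, -0.0032 to 0.61 for Slc7a5 and -0.024 to 0.51 for Slc7a6. For control lymphoma against WT, 7 to 9 were called. Slc3a2 was 0.10 with median-of-ratios scaling, 0.37 with upper-quartile scaling, 0.092 with DESeq2, 0.060 with a filter at 1 CPM, and -0.10 to 0.0051 over left-out libraries. Without ribosomal RNA rows the level of Slc1a5 in WT was 121 CPM per kb, against 71.1. The causes were not tested. Over all genes, KO against WT gave 883 calls, 1365 with no filter, 570 with the block and 12 with the Y-linked covariate. The lymphoma comparison gave 330 calls, 593 with DESeq2, 782 with no filter, 840 with all 4 groups, 4 with the block, 0 with the ribosomal RNA covariate in edgeR (495 at an unadjusted p under 0.05) and 100 to 2481 when a library was left out. The difference between effects gave 771 calls, 1198 with DESeq2 and 283 to 2001 when a library was left out. In lymphoma cells Slc43a1 rested on 16 to 175 counts per library. Slc7a11 had 1 to 10 counts in every library.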
